A study of Homo sapiens with 12 samples.

Results

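This account covers a set of secreted signalling proteins of inflammation and blood cell growth: the interleukins IL6, IL11, IL1A, IL1B, IL24, IL32 and IL33, the leukemia inhibitory factor LIF, and the colony-stimulating factors CSF1 and CSF2. The genes were listed by symbol, and all 10 were found among the 58721 genes of the count table. They were measured by RNA-seq in EW8 and TC71, established cell lines of Ewing sarcoma, a bone and soft-tissue tumor driven by the fusion protein EWS-FLI1. Each line carried a lentiviral Tet-On system that places c-Jun and c-Fos, joined in a single transcript, under the control of doxycycline, and was treated for 72 h with doxycycline at 2000 ng/ml or with the vehicle DMSO. This gave 4 groups of 3 libraries, 12 in all. Vehicle cells held the same constructs, although the labels give their genotype as WT. A doxycycline-treated line without the transgenes was not analysed here, so a response to the drug itself cannot be told apart from a response to c-Jun and c-Fos. The labels do not say whether replicates came from separate cultures, so p-values measure the spread between these libraries only.

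Cytokines of the IL-6 type, which include IL6, IL11 and LIF, bind a receptor chain of their own and then recruit the shared chain gp130 (IL6ST), which signals through JAK kinases and STAT3. IL1A, IL1B and IL33 belong to the IL-1 family, are made as precursors or held in the cell, and act through receptors that use the accessory chain IL1RAP and the adaptor MYD88. CSF1 and CSF2 direct the growth of macrophages and granulocytes. Many of these genes are silent in resting cells, and AP-1, the dimer of Jun and Fos proteins, is among the factors that bind their control regions together with NF-kB.

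Values are given in CPM, counts brought to a common library size with TMM factors, or in RPKM, which divides CPM by the exon length in kilobases and is used wherever different genes are compared. Adjusted p-values come from edgeR's quasi-likelihood test, corrected over all 21013 genes tested, and calls required that value to be below 0.05 and the log2 fold change to exceed 1 in size. A group whose 3 libraries all held at most 6 counts of a gene (3 read pairs, since both mates were counted) was taken to be at the floor. Against a group at 0 the fold is a lower bound computed with that floor, and against a group at the floor but above 0 it is a ratio with a 95% exact counting interval, which covers counting error only. These ratios were taken over read pairs, with odd counts rounded up.

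The libraries held 42860665 to 60853649 counts each. One library stood apart. TC71 vehicle replicate 1 had a chi-square per gene of 63.9 and 61.7 against the other replicates of its group, where all other replicate pairs lay between 5.40 and 11.03. Without it, 9 of the cytokine genes in EW8 and 8 in TC71 were still called higher with doxycycline, and calls on these genes that were lost without it are given beside their values. JUN and FOS, the induced genes, were higher in all 6 doxycycline libraries than in all 6 vehicle libraries. With doxycycline JUN averaged 473.7 CPM (EW8) and 755.5 CPM (TC71), against 21.6 and 20.7 CPM with vehicle. FOS reached 1078 and 1580 CPM, from 36.8 and 11.7 CPM, and transgene and endogenous reads are summed in these values. Summed over 10 Ewing sarcoma markers, EW8 libraries lay between 3024 and 3061 CPM with vehicle and between 2794 and 2859 CPM with doxycycline. TC71 libraries lay between 2659 and 2891 CPM with vehicle and between 2454 and 2542 CPM with doxycycline. None of these markers was at 0. Most of the EW8 sum was CCND1 and CD99. CCND1 averaged 1420 CPM with vehicle and 975.2 CPM with doxycycline, and CD99 806.6 and 1243 CPM. In EW8 2 of the 10 markers were called lower, beside 3.38% of all genes tested, and none higher. These were LIPI, from 47.67 to 18.1 CPM, and NPY1R, from 61.81 to 25.01 CPM. No marker was called in TC71. Median log2 fold changes of the 10 were -0.62 in EW8 and -0.33 in TC71. Summed over 16 leukocyte markers, libraries lay between 86.9 and 96.4 CPM in EW8 and between 4.38 and 6.03 CPM in TC71. In EW8 most of that sum was PTPRC, at a mean of 65.8 CPM with vehicle and 74.9 CPM with doxycycline, while the T and B cell genes CD3D, CD2 and MS4A1 and the myeloid gene TYROBP were at 0 in every library. Summed over 5 endothelial markers, libraries rose from between 7.69 and 8.72 CPM to between 45.6 and 51.0 CPM in EW8. In TC71 they rose from at most 0.382 CPM to between 3.90 and 5.19 CPM. Most of the EW8 endothelial sum was PECAM1, at a mean of 7.07 CPM with vehicle and 37.5 CPM with doxycycline. VWF and TEK were called higher there too, while CDH5, at 0.873 and 0.601 CPM, and KDR were not. The part of all these markers in the cytokine results was not tested.

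Most of these cytokine genes were higher with doxycycline, by log2 fold changes that ran from 1.65 for CSF1 to 9.23 for IL1A in EW8, but the genes at the highest levels differed between the lines. In EW8 the response was led by IL1B and IL1A, with LIF, IL33, IL11, IL24, CSF1, IL32 and IL6 at lower levels. In TC71 it was led by IL11, followed by CSF1, IL1A and LIF, while IL1B, IL24, IL32 and IL33 stayed low and IL6 was not seen. Of the 10 genes 9 passed the filter on low counts, CSF2 being left out. In EW8 all 9 were called higher, where 11.4% of all genes tested were called higher, and none was called lower (3.38% of all genes). In TC71 8 of the 9 were called higher, against 12.3% of all genes tested, none was called lower (3.67%), and the other was IL6. The median log2 fold change of the 9 genes was 6.87 in EW8 and 5.41 in TC71, beside -0.03 and 0.00 over all genes tested. Several of these genes passed the filter only through their doxycycline libraries, so the counts and medians describe them and support nothing further. Fewer cells making a transcript and less transcript per cell cannot be told apart in these bulk libraries.

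**Figure D1:**
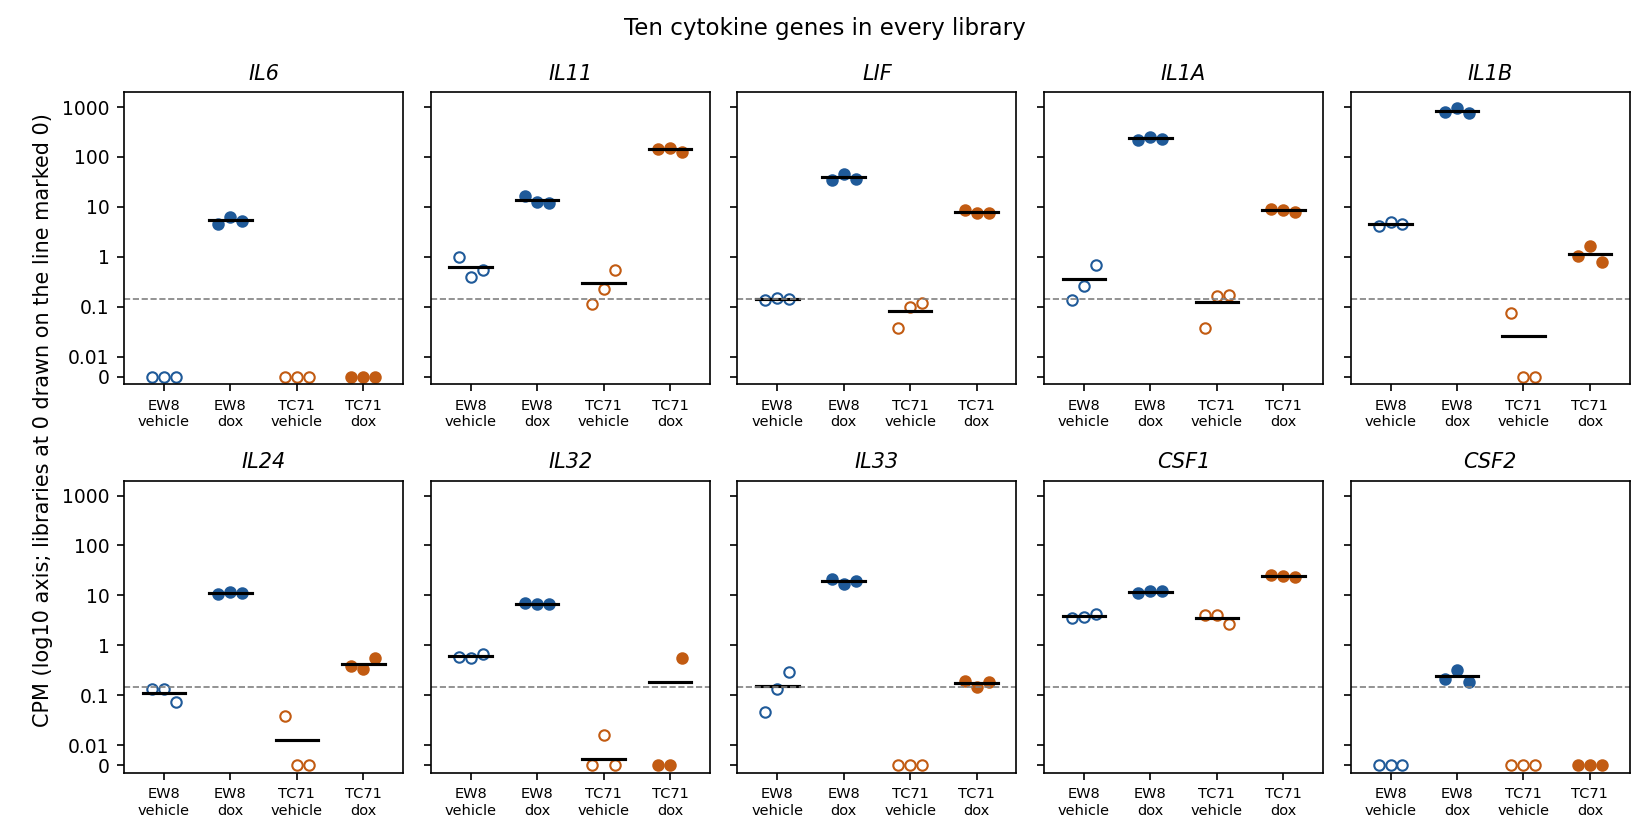
CPM of the 10 cytokine genes in each of the 12 libraries on a log10 axis, with open points for vehicle, filled points for doxycycline, blue for EW8, orange for TC71 and a bar at the mean of the 3 libraries. Libraries at 0 are drawn on the line marked 0, and the dashed line is the highest of the 12 libraries' values for 6 counts. IL1B in EW8 reached a mean of 841 CPM, IL11 in TC71 reached 141 CPM, and IL6 and CSF2 stayed at 0 in all 6 TC71 libraries.

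Among the IL-6-type cytokines, IL6 (ENSG00000136244.11, chromosome 7, 22725884 to 22732002 in hg38, plus strand, protein coding), the prototype of the family and an inducer of the acute phase response, appeared in EW8 alone. It was at 0 in the 3 EW8 vehicle libraries and at 4.60, 6.28 and 5.32 CPM (257, 318 and 233 counts) in the doxycycline libraries. All 6 TC71 libraries held no count, which allows up to 3 read pairs in each. The EW8 groups did not overlap. The rise was at least 39.9-fold in EW8 (adjusted p 7.31e-08). With doxycycline, TC71 was at least 37.1-fold lower than EW8 (adjusted p 3.94e-08). The antisense gene IL6-AS1 covers 20.7% of the IL6 exon length and counting ignored strand, so reads there were assigned to neither gene. IL6-AS1 itself held 8 counts in 1 EW8 doxycycline library and 0 in the other 11.

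IL11 (ENSG00000095752.6, chromosome 19, 55364389 to 55370463, minus strand, protein coding), a gp130 cytokine known for its action on platelet precursors and fibroblasts, rose in both lines and far more in TC71. In EW8 it was at 0.970, 0.392 and 0.539 CPM with vehicle and at 16.27, 12.77 and 11.97 CPM with doxycycline. In TC71 it was at 0.115, 0.226 and 0.543 CPM with vehicle and at 147.4, 150.3 and 125.8 CPM with doxycycline. The groups did not overlap within either line, and the TC71 doxycycline libraries lay above every other library. The EW8 log2 fold change was 4.45 (SE 0.24, adjusted p 3.13e-11) and the TC71 log2 fold change 8.92 (SE 0.26, adjusted p 2.84e-15). The difference of these responses, 4.47 on the log2 scale (SE 0.46, adjusted p 1.11e-06), was the largest in the direction of TC71 among the cytokine genes tested and held in all 19 alternative fits.

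LIF (ENSG00000128342.4, chromosome 22, 30240447 to 30246851, minus strand, protein coding), named for its effect on leukemia cells and known for keeping mouse stem cells undifferentiated, rose in both lines and reached the higher level in EW8. The EW8 vehicle libraries were at 0.135, 0.153 and 0.144 CPM and the doxycycline libraries at 34.4, 46.3 and 35.8 CPM. The TC71 vehicle libraries were at the floor, with 2, 6 and 6 counts, and the doxycycline libraries at 8.78, 7.53 and 7.62 CPM. Neither pair of groups overlapped. The log2 fold change in EW8 was 8.05 (SE 0.22, adjusted p 2e-15). In TC71 the ratio was 94.4 (95% counting interval 45.5 to 236.1, adjusted p 1.27e-13). The difference between the responses, -1.53 (SE 0.52, adjusted p 0.0482), rests on a vehicle group of 2, 6 and 6 counts and was no longer called in 9 of 19 alternative fits, where the adjusted p ran up to 0.184. These included the fits without any 1 of the EW8 vehicle libraries (-1.62 to -1.49), TC71 vehicle replicates 2 (-1.40) or 3 (-1.35), and TC71 doxycycline replicates 2 (-1.49, adjusted p 0.0703) or 3 (adjusted p 0.0707).

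Within the IL-1 family, IL1A (ENSG00000115008.5, chromosome 2, 112773915 to 112784590, minus strand, protein coding), an alarmin active in its uncleaved form, had the largest fitted rise in EW8 of the genes with vehicle counts above the floor. It was at 0.135, 0.262 and 0.701 CPM in EW8 vehicle libraries and at 216.3, 256.6 and 230.5 CPM with doxycycline. In TC71 it was at 0.0382, 0.161 and 0.175 CPM with vehicle and at 8.95, 8.77 and 7.94 CPM with doxycycline. Both pairs of groups were separate, and the TC71 doxycycline libraries lay far below the EW8 ones. The EW8 log2 fold change was 9.23 (SE 0.22, adjusted p 2.44e-16) and the TC71 log2 fold change 6.05 (SE 0.29, adjusted p 3.82e-12). The response was smaller in TC71 by -3.18 on the log2 scale (SE 0.68, adjusted p 0.00261), which held in all 19 alternative fits.

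IL1B (ENSG00000125538.11, chromosome 2, 112829751 to 112836903, minus strand, protein coding), a pyrogenic cytokine that caspase-1 releases from its precursor, was the most abundant of the set. It was already present in EW8 with vehicle, at 4.11, 4.93 and 4.49 CPM, and reached 805.6, 950.8 and 766.4 CPM with doxycycline (45006, 48111 and 33560 counts). In TC71 the vehicle libraries held 4, 0 and 0 counts and the doxycycline libraries 42, 68 and 34 counts, or 1.02, 1.63 and 0.774 CPM. The TC71 libraries with doxycycline thus lay below the EW8 libraries without it. The log2 fold change in EW8 was 7.54 (SE 0.15, adjusted p 3.13e-17). In TC71 the ratio was 47.0 (interval 12.6 to 395.8, adjusted p 1.82e-07). The difference between the 2 responses was -2.13 (SE 1.36, adjusted p 0.322), and was not called, while DESeq2 called it (-2.03, adjusted p 0.0458). Leaving out TC71 vehicle replicate 1, the library with the 4 counts, turned that difference to 1.19 (adjusted p 0.614).

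IL33 (ENSG00000137033.11, chromosome 9, 6215786 to 6257983, plus strand, protein coding), a nuclear alarmin of barrier and stromal cells, followed the same order of lines. The EW8 libraries held 2, 6 and 16 counts with vehicle and 1192, 867 and 848 with doxycycline, or 21.3, 17.1 and 19.4 CPM. The TC71 libraries were at 0 with vehicle and held 8, 6 and 8 counts with doxycycline. The EW8 log2 fold change was 6.87 (SE 0.32, adjusted p 2.82e-11). The TC71 rise was at least 1.49-fold (adjusted p 0.000284), and its doxycycline libraries lay at or just above the floor.

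IL24 (ENSG00000162892.15, chromosome 1, 206897443 to 206904139, plus strand, protein coding), a member of the IL-10 family that signals through IL20RB together with IL20RA or IL22RA1, was at the floor in both vehicle groups. The EW8 libraries held 6, 6 and 4 counts with vehicle and were at 10.8, 11.6 and 11.3 CPM with doxycycline. The TC71 libraries held 2, 0 and 0 counts with vehicle and 16, 14 and 24 counts with doxycycline. The groups were separate within both lines. The ratio was 102.3 (interval 51.7 to 237.8, adjusted p 1.54e-11) in EW8. In TC71 it was 35.3, with a wide interval of 5.81 to 1444 (adjusted p 2.48e-06).

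IL32 (ENSG00000008517.16, chromosome 16, 3065297 to 3082192, plus strand, protein coding), a cytokine without a mouse counterpart that induces TNF, was at 0.586, 0.567 and 0.683 CPM in EW8 with vehicle and at 6.91, 6.84 and 6.76 CPM with doxycycline. The log2 fold change in EW8 was 3.47 (SE 0.56, adjusted p 5.22e-05). The TC71 libraries held 0, 1 and 0 counts with vehicle and 0, 0 and 24 counts with doxycycline. The call in TC71 (adjusted p 0.0159) came from that 1 library, the groups overlapped, and without TC71 doxycycline replicate 3 the log2 fold change was -1.76 (adjusted p 0.514).

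Of the colony-stimulating factors, CSF1 (ENSG00000184371.13, chromosome 1, 109910242 to 109930992, plus strand, protein coding), the growth factor of macrophages and their precursors, was the gene of the set that both lines already expressed at like levels. It was at 3.47, 3.64 and 4.22 CPM in EW8 vehicle libraries and at 4.12, 3.96 and 2.64 CPM in TC71 vehicle libraries. With doxycycline it was at 11.2, 12.3 and 12.3 CPM in EW8 and at 25.3, 24.3 and 23.3 CPM in TC71. The 4 groups were separate but for the 2 vehicle groups, which overlapped. The EW8 log2 fold change was 1.65 (SE 0.15, adjusted p 5.06e-08) and the TC71 log2 fold change 2.76 (SE 0.15, adjusted p 3.38e-11), and the difference was 1.11 (SE 0.21, adjusted p 0.000881). That difference kept an adjusted p of at most 0.00783 in 20 alternative fits, but fell below the fold limit without EW8 vehicle replicate 3 (0.93), EW8 doxycycline replicate 1 (0.96) or TC71 vehicle replicate 3 (0.85).

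CSF2 (ENSG00000164400.5, chromosome 5, 132073790 to 132076170, plus strand, protein coding), the granulocyte-macrophage factor GM-CSF, was barely detected. Its EW8 libraries held 0 counts with vehicle and 12, 16 and 8 counts with doxycycline, at least 1.76-fold higher. All 6 TC71 libraries held 0. The gene did not pass the filter, and in a fit without the filter its EW8 adjusted p was 0.0118. CSF3 (G-CSF, which drives neutrophil production), is another colony-stimulating factor outside the set and was singled out after its values were seen. It held 0, 4 and 0 counts in EW8 vehicle libraries and 1032, 1130 and 744 counts with doxycycline, a ratio of 705.4 (interval 194.9 to 5830, adjusted p 3.75e-10), and 0 counts in all 6 TC71 libraries.

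**Figure D2:**
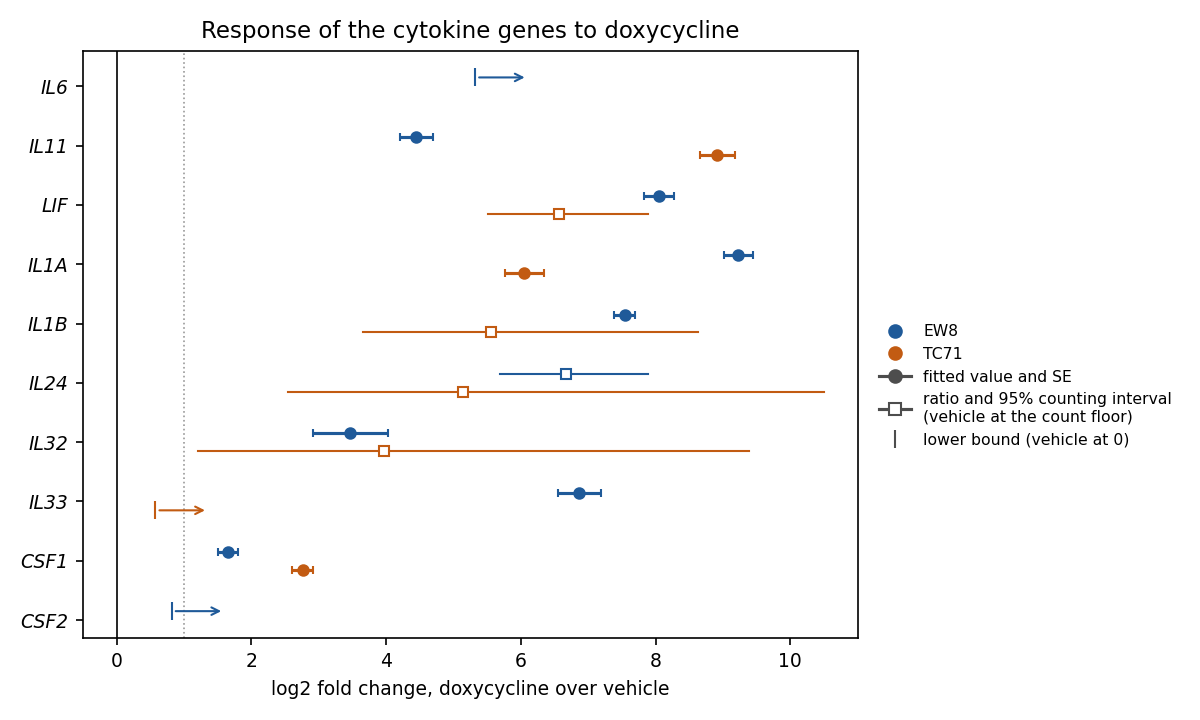
Log2 fold change with doxycycline over vehicle for each gene in EW8 (blue) and TC71 (orange). Filled circles are fitted values with their SE, open squares are ratios against a vehicle group at the floor with 95% counting intervals, and bars with arrows are lower bounds against a vehicle group at 0. IL11 lies further right in TC71 (8.92 against 4.45) and IL1A in EW8 (9.23 against 6.05). IL6 and CSF2 have no TC71 point because all 6 TC71 libraries were at 0.

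Compared per exon length, the cytokine genes formed a steep order with doxycycline. In EW8, IL1B came first at 271.6 ± 31.4 RPKM (SD, n = 3), followed by IL1A at 110.4 ± 9.62 RPKM and LIF at 9.79 ± 1.63 RPKM. IL33, IL24 and IL11 came next at means of 5.93, 5.68 and 5.12 RPKM, with overlapping libraries. IL6, CSF1 and IL32 followed at 2.61, 2.20 and 2.13 RPKM, again overlapping from each to the next, and CSF2 was last at 0.302 RPKM. In TC71 the order was another one. IL11 led at 52.9 ± 5.01 RPKM, then came CSF1 at 4.48 ± 0.190, IL1A at 4.03 ± 0.253 and LIF at 2.01 ± 0.175 RPKM, none overlapping its neighbour. IL1B and IL24 overlapped at means of 0.368 and 0.214 RPKM, IL32 and IL33 lay below 0.1 RPKM on average, and IL6 and CSF2 were at 0. With vehicle, IL1B (1.46 RPKM) and CSF1 (0.697 RPKM) led in EW8 and CSF1 (0.660 RPKM) in TC71, and the remaining genes lay at means of at most 0.237 RPKM.

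**Figure D3:**
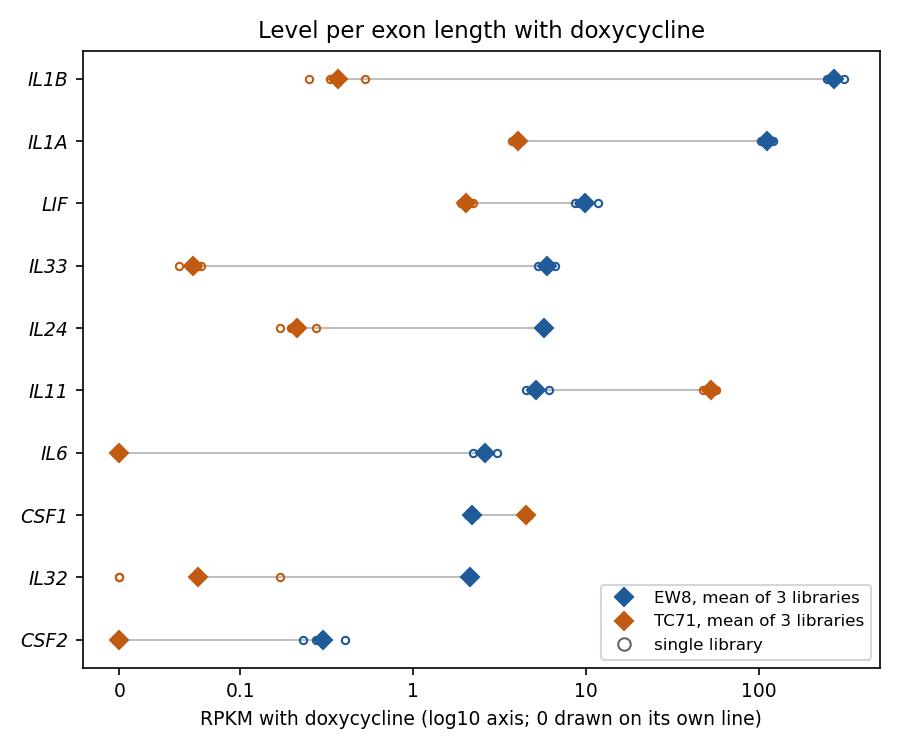
RPKM of the 10 genes with doxycycline on a log10 axis, ordered by the EW8 mean, with diamonds for the mean of 3 libraries and open circles for single libraries. EW8 (blue) lies to the right of TC71 (orange) for 8 genes, and TC71 to the right for IL11 (52.9 against 5.12 RPKM) and CSF1 (4.48 against 2.20 RPKM).

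The lines were then set against each other at the same treatment. With doxycycline, 7 of the 9 genes tested were called lower in TC71 than in EW8, beside 18.4% of all genes. Called higher were 2, beside 12.6% of all genes. IL6 and IL33 passed the filter only through their EW8 doxycycline libraries, so these counts describe the genes and support nothing further. The log2 differences (TC71 minus EW8) were -9.53 for IL1B (SE 0.17, adjusted p 1.18e-17), -4.78 for IL1A (SE 0.15, adjusted p 1.22e-14) and -2.28 for LIF (SE 0.14, adjusted p 8.69e-11). They were -6.78 for IL33 (SE 0.32, adjusted p 1.83e-11), -4.72 for IL24 (SE 0.29, adjusted p 9.66e-11) and -5.17 for IL32 (SE 0.65, adjusted p 1.42e-06). IL6 was the other gene called lower. The 2 higher genes were IL11, at 3.36 (SE 0.17, adjusted p 5.41e-12), and CSF1, at 1.03 (SE 0.14, adjusted p 3.99e-06). CSF1 stood so close to the fold limit that it was no longer called in 8 of 21 alternative fits, in which the difference ran from 0.96 to 1.00. Among them were the fits without EW8 vehicle replicate 3, EW8 doxycycline replicates 1 or 3, TC71 vehicle replicate 3 or TC71 doxycycline replicate 1. Under the same treatment, JUN was higher in TC71 by a log2 of 0.67 (adjusted p 1.62e-05) and FOS by 0.55 (adjusted p 2.03e-07), which were not past the fold limit.

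With vehicle, 6 of the 9 genes were called lower in TC71, beside 18.9% of all genes, and none was called higher, beside 11.6% of all genes. The clearest was IL1B, at a ratio of 187.2 in favour of EW8 (interval 51.4 to 1552, adjusted p 1.03e-11). IL32 averaged 0.612 CPM in EW8 and 0.00537 CPM in TC71 (adjusted p 0.000141), the latter being a single count. With that count taken as 1 read pair the ratio was 51.2 (interval 8.73 to 2067). IL33 was at 0 in TC71 and at least 1.33-fold higher in EW8 (adjusted p 0.000192). IL24 was at the floor in both lines (adjusted p 0.00302), so its call, counted among the 6, gives no measured difference. IL11 (-1.10, SE 0.42, adjusted p 0.0297) and IL1A (-1.60, SE 0.52, adjusted p 0.0121) overlapped between the lines at few counts. The IL11 call was lost without EW8 vehicle replicate 1 (-0.70), EW8 doxycycline replicate 2 (-1.01, adjusted p 0.051), TC71 vehicle replicate 1 (-0.64) or TC71 vehicle replicate 2 (-0.93). The IL1A call was lost without EW8 vehicle replicate 3 (-0.61) or TC71 vehicle replicate 1 (-1.10). LIF (adjusted p 0.17) and CSF1 (-0.08, SE 0.16, adjusted p 0.683) were not called. FOS was lower in TC71 under vehicle by a log2 of -1.65 (adjusted p 2.68e-13).

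The response itself was compared between the lines with an interaction term. Of the 9 genes, 2 responded more strongly in TC71 (IL11 and CSF1), beside 4.18% of all genes, and 2 less strongly (LIF and IL1A), beside 2.87%. For IL24 (-1.77, adjusted p 0.449) and IL32 (1.00, adjusted p 0.734) the difference was not called. Their TC71 vehicle libraries held at most 2 counts. IL33 was not called either (adjusted p 0.745), and with its TC71 vehicle libraries at 0 the size of its difference could not be estimated. The IL24 difference was 0.68 without TC71 vehicle replicate 1. For IL6, at 0 in 3 of the 4 groups, it could not be estimated. The induced genes also responded more in TC71, by 0.73 for JUN (SE 0.15, adjusted p 0.00217) and 2.21 for FOS (SE 0.09, adjusted p 6.41e-12).

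For each gene tested, the other genes with the most similar profile over the 12 libraries were listed by the root mean square difference of log2 CPM, each centred on its own mean. IL6, at 0 in every library outside EW8 doxycycline, was nearest to MRGPRX3 (0.29), the chemokine CXCL1 (0.39) and LCN1 (0.47). With so few libraries holding counts, these distances are not comparable with those of genes counted in every library. LIF was nearest to GPRC5A (0.34), and CSF1 to ADCY7 (0.21), ADAM9 (0.25) and TRIO (0.26). IL1A was nearest to DHRS9 (0.90) and ANXA8 (0.96), and IL11 to APBB1IP (0.81) and S100A2 (0.82). IL33 and IL24 shared MIR100HG and OAS2 among their 3 nearest genes. IL1B had no close neighbour, the nearest being the chemokine CCL26 at 1.46. Such likeness describes levels in these libraries only.

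RefSeq promoter windows (the 250 bases before each start site, GRCh38.p14) were found for 8 of the 10 genes, 11 windows in all. LIF and CSF1 had no entry. The windows were searched on both strands for the AP-1 site TGANTCA, the related CRE site TGACGTCA, an NF-kB consensus and the repeat GGAAGGAA, of the kind bound by EWS-FLI1. The letters of these motifs do not overlap one another. Of 35116 windows of the same length, 6.57% held the AP-1 site, 1.65% the CRE site, 9.96% the NF-kB consensus and 3.06% the repeat. An AP-1 site was found for IL11, the leading gene of TC71, and for IL1A, next to the top in EW8, and their sequences are shown for that reason. The IL11 window (chr19:55370464-55370713, minus strand, written from 5′ to 3′) holds an AP-1 site at -96 to -90 from the start and a repeat at -182 to -175, both in capitals, the repeat being read on the other strand.
IL11: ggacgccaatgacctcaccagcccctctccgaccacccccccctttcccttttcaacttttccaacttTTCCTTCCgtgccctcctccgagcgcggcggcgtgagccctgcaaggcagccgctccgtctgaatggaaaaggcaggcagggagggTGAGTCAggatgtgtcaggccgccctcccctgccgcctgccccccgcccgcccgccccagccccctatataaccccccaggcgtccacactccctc
The 2 AP-1 sites of IL1A lie at -105 to -99 and -55 to -49 of its second listed start and are given within 30 bases each (chr2:112784487-112784516 and chr2:112784437-112784466, minus strand), with the site in capitals.
IL1A upstream site: gcgaagaagacTGACTCAggcttaagctgc
IL1A downstream site: tcattggcgttTGAGTCAgcaaaggtattg
IL6, seen in EW8 alone, held no AP-1 site in this window but an NF-kB match at -73 to -64 (chr7:22727117-22727146, plus strand, match in capitals). IL32 held a CRE site at -121 to -114 (chr16:3065271-3065300, plus strand, site in capitals) and an NF-kB match.
IL6: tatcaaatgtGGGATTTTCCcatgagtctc
IL32: tcccacttggcTGACGTCAccttcctgtac
IL33 held a repeat at -80 to -73, and the windows of IL1B, IL24 and CSF2 held none of the 4 motifs. The windows of IL6, IL1A, IL1B and IL32 and the second window of IL33 overlap exons of the same genes as annotated for counting. The sites shown for IL1A and IL6 lie inside the annotated spans of those genes. These are matches of letters in a short window, and binding was not measured here.

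The receptor chains of these cytokines and other genes of their pathways were followed in the same libraries. The counts of these lists are to be read against 11.4% of all genes tested called higher and 3.38% lower in EW8, 12.3% higher and 3.67% lower in TC71, and all-gene medians of -0.03 and 0.00. Among 8 receptors of the gp130 type, 3 were called higher in EW8 and none lower, and 5 were called higher and 1 lower in TC71. Their median log2 fold changes were 0.38 and 1.44. IL6R, the IL-6 binding chain, rose in EW8 from 0.138 ± 0.0569 to 11.69 ± 0.888 RPKM, a change of 6.37 on the log2 scale (SE 0.20, adjusted p 1.74e-14). In TC71, where IL6 stayed at 0, IL6R went from 0.0709 ± 0.0381 to 11.98 ± 0.722 RPKM, a change of 7.36 (SE 0.22, adjusted p 5.08e-15), and the 2 responses were not called different (adjusted p 0.0563). The shared chain IL6ST was at 38.5 and 132.5 CPM in EW8 and at 53.6 and 122.9 CPM in TC71 without and with doxycycline, and was called higher in both (adjusted p 1.32e-11 and 2.59e-09). LIFR, the LIF binding chain, was at -0.07 in EW8 (adjusted p 0.284) and rose by 1.54 in TC71 (SE 0.05, adjusted p 2.83e-14), where LIF was the lower, and the difference of 1.61 passed (adjusted p 2.11e-11). IL11RA, the IL-11 binding chain, fell by 1.14 in TC71 (SE 0.33, adjusted p 0.00857), where IL11 was highest, and was at -0.54 in EW8 (adjusted p 0.253). That fall was at -0.98 without TC71 vehicle replicate 1 or TC71 doxycycline replicate 1.

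Also of this type were OSMR, the oncostatin M chain, which rose by 2.24 in TC71 (adjusted p 4.5e-15) and was at 0.83 in EW8 (adjusted p 3.38e-09, under the fold limit), and IL31RA, which rose by 6.54 in EW8 (adjusted p 3.89e-12) and by a ratio of 227.3 in TC71 (interval 77.4 to 1106, adjusted p 2.3e-11).

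Only 2 of 6 IL-1 family receptor genes passed the filter, and they went opposite ways. IL1R1, the receptor of IL1A and IL1B, rose in EW8 from 8, 2 and 10 counts to 2811, 2554 and 2010 counts (log2 fold change 8.45, SE 0.22, adjusted p 2.31e-14). The TC71 libraries went from 0 to 20, 26 and 22 counts, at least 4.60-fold (adjusted p 1.92e-07). The accessory chain IL1RAP fell by 1.04 in EW8 (SE 0.07, adjusted p 9.2e-10) and by 1.07 in TC71 (SE 0.07, adjusted p 5.03e-10). The EW8 value lay under the fold limit, at -0.95 to -0.99, in several alternative fits. These left out EW8 vehicle replicate 3, EW8 doxycycline replicates 1 or 2, or TC71 vehicle replicates 1 or 3. Others required at least 10 counts in every library (-0.97), fitted only the libraries compared (-0.99) or halved the counts (-0.99). IL1RL1, the IL-33 receptor, held 32, 10 and 22 counts in EW8 with doxycycline and 0 in the other 9 libraries, and was not tested. The receptor antagonist IL1RN went from 0 in both vehicle groups to 56, 46 and 32 counts in EW8 (at least 6.51-fold, adjusted p 1.38e-05) and to 28, 30 and 22 counts in TC71 (at least 5.43-fold, adjusted p 1.92e-05). IL36RN, the antagonist of the IL-36 cytokines, rose at least 13.1-fold in EW8 (adjusted p 1.11e-05) and was at 0 in TC71. These were the called genes among 4 of 5 antagonists and decoys that passed the filter.

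Of the IL-24 receptor chains, IL20RB rose by 1.28 in EW8 (SE 0.34, adjusted p 0.00508) and was at 0.98 in TC71 (adjusted p 0.0349, under the fold limit), where it was called without TC71 vehicle replicate 2 (1.36) or TC71 doxycycline replicate 3 (1.16), or with the replicate block (1.06, adjusted p 0.0215). IL20RA (-0.95, adjusted p 0.344) and IL22RA1 (0.07, adjusted p 0.879) did not pass in EW8, nor in TC71 (adjusted p 0.241 and 0.638). CSF1R, the CSF1 receptor, stayed at low levels and rose by 1.80 in EW8 (SE 0.36, adjusted p 0.000518) and by 2.04 in TC71 (SE 0.39, adjusted p 0.000252). CSF2RA, the CSF2 binding chain, rose from 7.88 to 18.1 CPM in EW8 (adjusted p 0.000208) and was at the floor in TC71. It lies in a region present on both sex chromosomes, where read assignment is uncertain. CSF2RB, its signalling partner, held at most 10 counts in any library and was not tested.

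**Figure D4:**
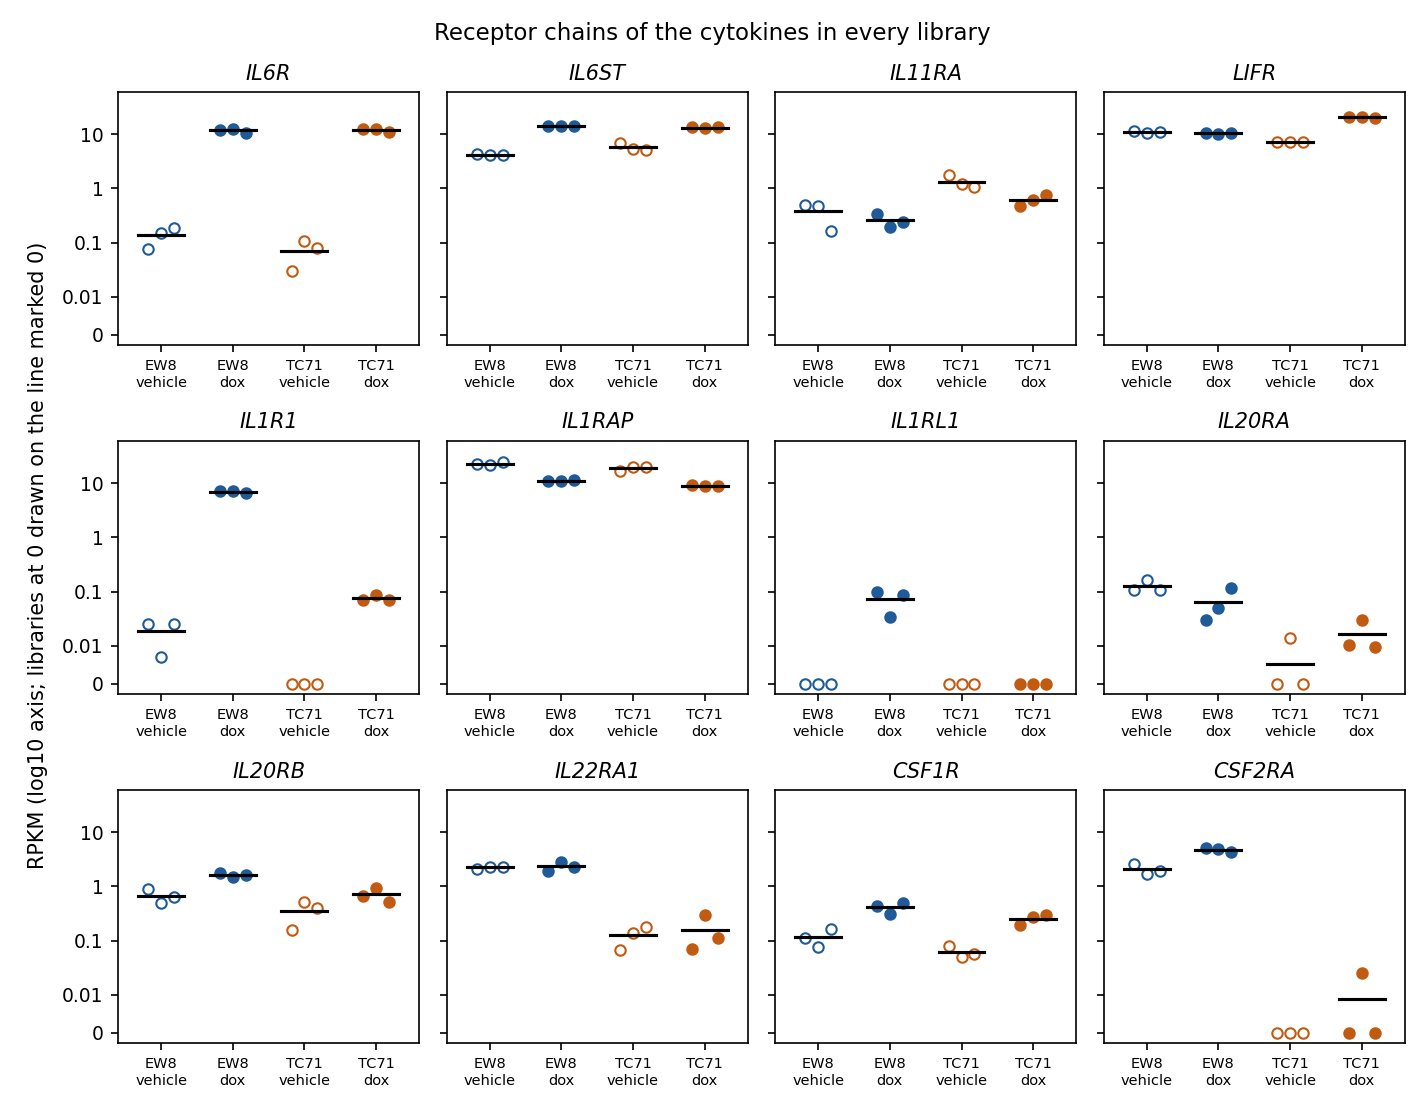
RPKM of 12 receptor chains in each library on a log10 axis, with open points for vehicle, filled points for doxycycline, blue for EW8, orange for TC71, bars at the means and libraries at 0 on the line marked 0. IL6R rose to 11.69 and 11.98 RPKM in the 2 lines, IL1R1 to 6.90 RPKM in EW8 and 0.0756 RPKM in TC71, and IL1RAP fell in both.

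Of 40 further interleukins, IL-6-type cytokines and colony-stimulating factors, 15 passed the filter. In EW8 11 were called higher and in TC71 7, with none called lower, beside 11.4% and 12.3% of all genes tested called higher. Their median log2 fold changes were 2.71 and 1.79, beside -0.03 and 0.00. Genes whose vehicle libraries were at 0, such as IL36G, passed the filter only through their doxycycline libraries, so these counts and medians are a description. The named ones are IL36G, which went from 0 to 60, 53 and 58 counts in EW8 (at least 8.49-fold, adjusted p 4.6e-05), IL36B (at least 2.02-fold in EW8, adjusted p 0.00236), IL17B (at least 2.08-fold in EW8 and 1.43-fold in TC71, adjusted p 0.00262 and 0.0058), and EBI3, a subunit of IL-27 and IL-35. EBI3 rose by a ratio of 88.4 in EW8 (interval 34.2 to 326, adjusted p 1.17e-09) and 20.6 in TC71 (interval 8.48 to 65.3, adjusted p 2.19e-07).

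Downstream of the receptors, most signalling genes were not called. Of 11 IL-1 signal transducers 2 were called higher in EW8 and 1 in TC71, near the share of all genes (11.4% and 12.3%). The kinase IRAK2 rose by 2.40 and 2.05 (adjusted p 2.56e-09 and 1.44e-07), and IRAK1 by 1.32 in EW8 (adjusted p 8.85e-12) beside 0.84 in TC71 (adjusted p 3.79e-09). Of 12 genes tested for processing and release of the IL-1 family, 5 were called higher in EW8 and 4 in TC71, beside the same shares of all genes, with a median of 1.17 and 0.95. Among them CAPN2, a calpain of the kind that cleaves the IL1A precursor, rose by 3.16 and 3.06 (adjusted p 3.14e-18 and 4.51e-18). The pore-forming protein gene GSDME rose by 2.69 and 4.30 (adjusted p 4.18e-10 and 1.39e-11), and the DNA sensor AIM2 by 5.14 in EW8 (adjusted p 3.88e-09) and at least 1.62-fold in TC71 (adjusted p 0.00018). NLRP3, the inflammasome sensor, held a ratio of 35.9 in EW8 (interval 6.06 to 1457, adjusted p 0.00204) and was at the floor in TC71. CASP1, the gene of caspase-1, went the other way. Its EW8 libraries were at 15.92, 12.27 and 13.92 CPM with vehicle and at 9.67, 9.17 and 8.13 CPM with doxycycline. The TC71 libraries held 9, 2 and 3 counts of CASP1 with vehicle and 0, 0 and 2 with doxycycline. No gene of this list was called lower in either line.

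Of 21 JAK-STAT transducers and inhibitors, 3 were called higher and 1 lower in EW8, and 4 higher in TC71, near the shares of all genes (11.4% higher and 3.38% lower, and 12.3% higher), with medians of 0.18 and 0.11. The feedback inhibitor SOCS3 rose by 3.65 in EW8 (SE 0.13, adjusted p 7.16e-14) and 2.30 in TC71 (SE 0.13, adjusted p 7.77e-11), and SOCS1 by 1.81 and 3.33 (adjusted p 0.00418 and 2.15e-05). STAT2 rose by 1.52 in EW8 (adjusted p 8.31e-10), and was at 0.32 in TC71 (adjusted p 0.0156, under the fold limit). STAT4 rose by 2.15 in TC71 (adjusted p 3.08e-05) and was at 0.89 in EW8 (adjusted p 0.101), where it was called without EW8 vehicle replicate 2 (1.55) or EW8 doxycycline replicate 1 (1.21). Of 13 STAT3-responsive genes tested (18 listed), 5 were called higher in EW8 and 3 in TC71, beside 11.4% and 12.3% of all genes, with medians of 0.84 and 0.86. Among these IER3 rose by 4.48 and 2.75 (adjusted p 4.42e-15 and 2.58e-12), and BCL3 by 2.31 in EW8 (adjusted p 1.09e-07) beside 0.51 in TC71 (adjusted p 0.0815).

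Of 11 factors that control the decay of cytokine mRNAs, 4 were called higher in EW8 and 2 in TC71, beside 11.4% and 12.3% of all genes, with medians of 0.11 and 0.15. ZC3H12A (regnase-1), which cleaves IL6 mRNA, rose by 3.17 in EW8 and 1.39 in TC71 (adjusted p 2.65e-13 and 2.61e-08). ZFP36L1, which binds AU-rich elements, rose by 1.86 and 2.19 (adjusted p 1.88e-13 and 2.02e-14). ZFP36 (tristetraprolin) rose by 1.82 in EW8 (adjusted p 2.23e-08) and was at 0.85 in TC71 (adjusted p 0.00038). ARID5A, which stabilises IL6 mRNA, rose by 1.86 in EW8 (adjusted p 4.52e-11) and was at 0.58 in TC71 (adjusted p 0.000184).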

How the data were processed

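Poly(A) RNA of EW8 and TC71 cells was made into TruSeq stranded libraries. Per the submitters' processing notes and the file headers, the authors used STAR (hg38) and then featureCounts 2.0.1 on the exons of GENCODE release 29. They deposited raw gene-level counts, with mates counted singly and strand ignored. Multi-mapped reads and reads on more than 1 gene were left out. Further authors' steps are not used here.

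Symbols were matched for 58207 of 58721 genes (99.1%). Groups and replicate numbers came from the labels. Counts were filtered with filterByExpr (21013 genes, holding 99.95% of counts), scaled by TMM and fitted over all 12 libraries with edgeR 4.0.16 (R 4.3.3), with Benjamini-Hochberg adjustment. RPKM used the deposited exon lengths. The steps were tested on simulated data. Alternatives were RLE factors, library size alone, no filter, at least 10 counts in every library, DESeq2 1.42.0, only the libraries compared, a replicate block, halved counts, no fold limit, and leaving out each library.

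The 10 genes and the 14 other gene lists were chosen with earlier results of these data known. Named from the other lists were up to 4 called genes each with the largest mean absolute change over both lines, plus the receptor chains of the cytokines. CSF3 and CASP1 are given outside this rule. Of the genes first listed, 2 are not reported here and were taken out of their lists. Marker genes are given as sums, with some by name, and the neighbours of each gene by profile in part. Replicates differed by more than counting noise in every group, TC71 vehicle replicate 1 most, and same-numbered replicates did not deviate together (correlations -0.02 to 0.01). Total counts of at least 42860665 make 6 counts 0.0966 to 0.145 CPM. Reads amplified by PCR are not independent, so floors and intervals cover counting error only.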

Additional observations from a re-analysis of the deposited data

Results flagged for a closer look

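The response to doxycycline differed between the lines, by the interaction test (adjusted p under 0.05), for the following genes. The values are log2 responses of TC71 minus EW8. Responses were larger in TC71 for IL11 (4.47, SE 0.46), CSF1 (1.11, SE 0.21), FOS (2.21), JUN (0.73), LIFR (1.61), OSMR (1.41), GSDME (1.60) and ZFP36L1 (0.33).

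They were smaller in TC71 for IL1A (-3.18, SE 0.68), LIF (-1.53, SE 0.52, adjusted p 0.0482), IL6ST (-0.59), IRAK1 (-0.47), STAT2 (-1.20), SOCS3 (-1.35), BCL3 (-1.80), IER3 (-1.73), ZFP36 (-0.97), ZC3H12A (-1.78) and ARID5A (-1.28).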

How the results depend on the processing

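Over the alternatives, all 181 refitted values of the cytokine genes' response in EW8 kept their direction and their side of the threshold, as did 158 of 159 in TC71. The exception was IL32, at -1.76 without TC71 doxycycline replicate 3. Requiring at least 10 counts in every library left CSF1 alone to be tested, so that 1 gene was called higher in each line, 1 in the difference of responses (0 lower), and 0 in either comparison of the lines. In that difference, 4 genes were called lower by DESeq2 (IL1B among them), 1 with halved counts and 1 with the replicate block. Between the lines, 2 genes were called lower under vehicle when only the libraries compared were fitted, and 1 was called higher with doxycycline with library size alone or halved counts.

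Refits that each left out 1 library gave 9 to 10 genes higher in EW8, 7 to 8 in TC71, 1 to 2 higher and 1 to 2 lower in the difference, 4 to 6 lower under vehicle, and 1 to 2 higher and 7 to 8 lower with doxycycline. Over these refits the IL32 response in TC71 ran from -1.76 to 6.18. Differences of responses that turned were IL1B (-2.75 to 1.19) and IL24 (-2.35 to 0.68), both positive without TC71 vehicle replicate 1, and IL32 (-5.23, without TC71 doxycycline replicate 3, to 2.71, and -0.06 with halved counts). CSF1 under vehicle, not called, ran from -0.16 to 0.12 and was positive without EW8 vehicle replicate 3 (0.04), EW8 doxycycline replicates 1 or 2 (0.01 each) or TC71 vehicle replicate 3 (0.12). IL22RA1, not called, ran from -0.04 to 0.24 in EW8 and from -0.48 to 0.64 in TC71, and was negative there without vehicle replicate 1 (-0.08) or doxycycline replicate 2. The causes were not tested.

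Replicate numbers were shared between groups without pairing the samples. The replicate block left 9 and 8 genes higher in EW8 and TC71, 1 lower in the difference, where LIF was no longer called (-1.53, adjusted p 0.054). Among the other genes named it changed 1 call, IL20RB in TC71 (1.06, adjusted p 0.0215). Depth limits IL6, IL24, IL32, IL33 and CSF2 in TC71, where no library held more than 24 counts.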
